A study of Mus musculus with 6 samples.

Results

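The genes described here are Nr1i2, Nr1i3, Nr1h4, Nr0b2, Rxra, Ahr, Thrb and Por, which encode 6 nuclear receptors of the liver, the aryl hydrocarbon receptor and cytochrome P450 oxidoreductase. They were taken by gene name and are 8 of the 34745 genes in the deposited expression table. The table holds messenger RNA sequencing of mouse liver in 6 libraries: each sex gave 1 tumour, 1 precancerous and 1 normal library. The tumour and the precancerous libraries come from C57BL/6 mice transgenic for Hras12V, an activated form of the RAS signalling protein, and the normal libraries from wild-type C57BL/6 mice. The labels call the precancerous tissue adjacent to the tumour and leave unsaid if the 2 tissues of a sex share a mouse; no mouse was treated. All male libraries are from mice aged 9 months and all female ones from mice aged 15 months, which makes a sex effect and an age effect inseparable. The labels give neither the promoter that drives the transgene nor whether a library is 1 mouse or a pool of mice.

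Nuclear receptors are transcription factors that bind small molecules and then change the transcription of their target genes. PXR (Nr1i2) and CAR (Nr1i3) respond to drugs and other foreign compounds and induce the enzymes and transporters that clear them. FXR (Nr1h4) binds bile acids and induces SHP (Nr0b2), which represses bile acid synthesis, and the thyroid hormone receptor beta (Thrb) sets much of the liver's response to that hormone. RXR alpha (Rxra) is the shared partner of PXR, CAR, FXR and the thyroid hormone receptors. The aryl hydrocarbon receptor (Ahr) belongs to another family of transcription factors and responds to planar aromatic compounds, and Por passes electrons from NADPH to the microsomal cytochrome P450 enzymes that many of these factors induce.

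In tumours, messenger RNA of 5 of the 8 genes fell against precancerous tissue and none rose, where 12.1% of all tested genes fell and 13.8% rose. These 5 were the receptor genes Nr1i2, Nr1i3, Nr1h4, Ahr and Thrb, and Nr1i3 was 4.67-fold lower in tumours as counted. The same 5 fell in tumours against normal liver and none of the 8 rose, beside 16.1% of tested genes that fell and 17.3% that rose. None of the 8 was called between precancerous and normal liver, where 0.105% of tested genes rose and 0.149% fell. In males 4 of the 8 were lower than in females and Thrb alone was higher, beside 18.2% of tested genes lower and 19.1% higher; Por was 2.65-fold lower in males. A call means an adjusted p under 0.05 in edgeR's quasi-likelihood test over all 11435 tested genes.

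Library depth bears on each value. Total counts were 7347064, 6891837 and 5996585 in the male tumour, precancerous and normal libraries, and 18434508, 15047022 and 17655912 in the female ones. The 8 genes had between 79 counts (Nr0b2, male tumour) and 13991 counts (Por, female normal liver), and all 8 passed the filter on low values, which asked for 1 FPKM or more in 2 or more libraries. FPKM divides a count by the gene's length and by the library's total. The 7 hepatocyte marker genes in the table were detected in all 6 libraries, at 76.4 FPKM or more each, which fits the tissue label. The 9 Kupffer cell markers, of the resident liver macrophages, summed to 66.1 and 105.8 FPKM in male and female tumours, 259.4 and 312.2 FPKM in precancerous tissue and 158.6 and 192.8 FPKM in normal liver, and 8 of the 9 fell in tumours against precancerous tissue. In the same comparison 1 of 8 endothelial markers rose and 4 fell, 5 of 9 stellate cell markers rose and 2 fell, and 2 of 3 tested cholangiocyte markers and 2 of 3 tested lymphocyte markers rose, while 1 of the 7 hepatocyte markers rose and none fell. Nkg7, 1 of the risen lymphocyte markers, reached 1 FPKM in the tumours only and so passed the filter through them alone. No marker gene was at 0 in any library, and the part of other cell types in the differences of the 8 genes was not tested. In tissue samples such as these, fewer cells of a type and less RNA per cell cannot be told apart.

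**Figure D1:**
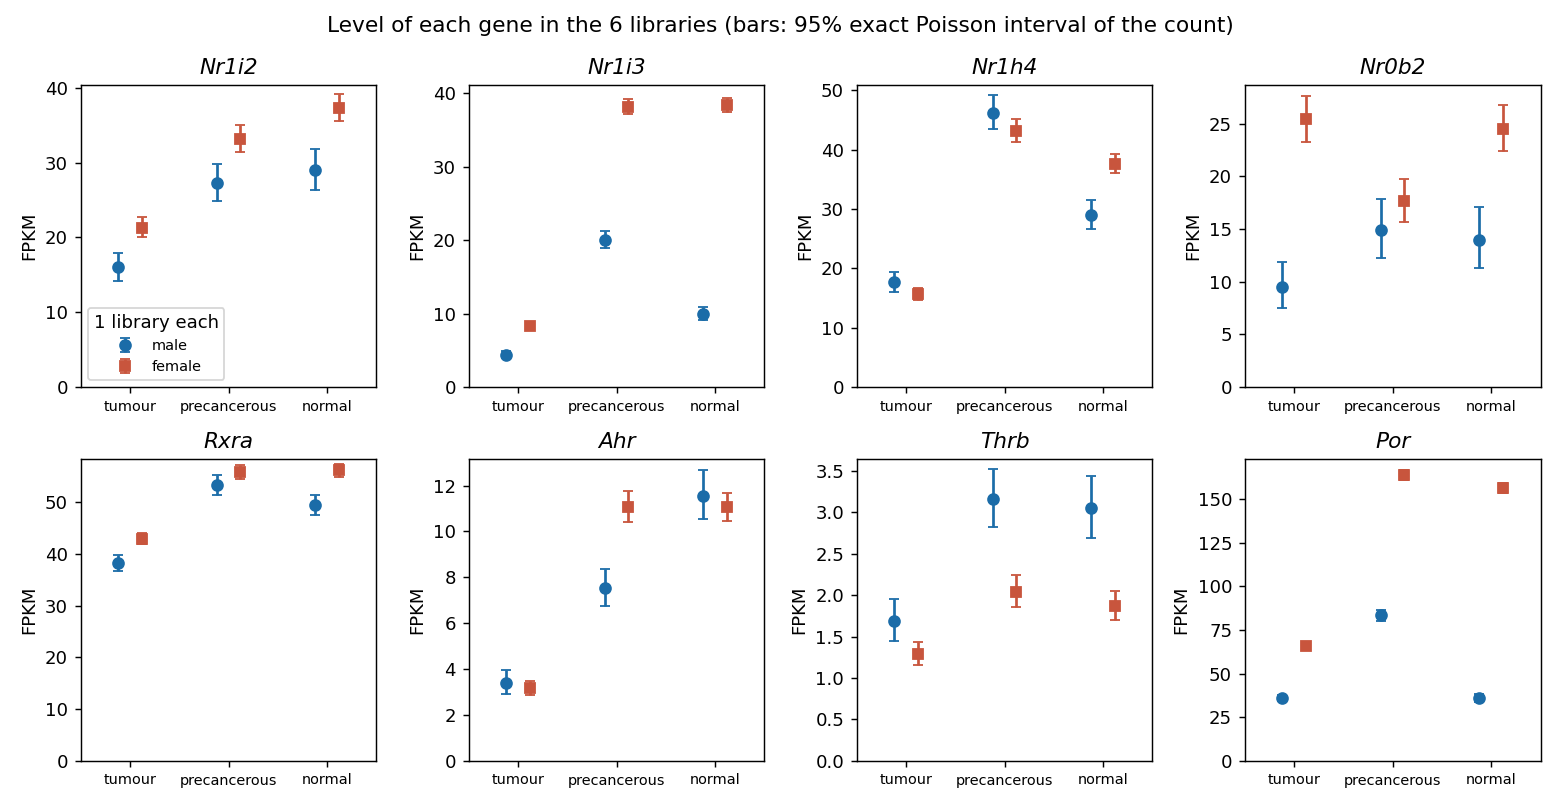
FPKM of the 8 genes in each library, with tumour, precancerous and normal liver from left to right, males as circles and females as squares; bars are 95% exact Poisson intervals of the count and cover counting error only. In both sexes the tumour value of Nr1i2, Nr1i3, Nr1h4, Rxra, Ahr and Thrb is the lowest of the 3 tissues, and Nr0b2 has no tissue order that holds in both.

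Between genes, levels depend on the length used for scaling. For 7 of the 8 genes the length behind the deposited FPKM equalled the summed length of all distinct annotated exons, with overlapping exons of different transcripts counted more than once, and for 6 of the 8 it exceeded the merged exonic length. Scaled to merged exons of the GENCODE M21 annotation, the mean FPKM over the 6 libraries was 113.7 for Por, 74.8 for Rxra, 43.3 for Nr1h4, 38.8 for Nr1i3, 27.3 for Nr1i2, 17.6 for Nr0b2, 8.46 for Ahr and 4.25 for Thrb. On the deposited FPKM scale Nr1i3, at a mean of 19.9, ranked below Nr1i2, at 27.3, and the other genes kept this order. Differences between libraries within a gene do not depend on that length. Each gene's values below are deposited FPKM.

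Among the xenobiotic receptor genes, Nr1i2 lies on chromosome 16, from 38248323 to 38294824 (build GRCm38). It stood at 16.0 FPKM in male and 21.3 FPKM in female tumours, against 27.3 and 33.2 FPKM in precancerous tissue and 29.0 and 37.3 FPKM in normal liver. Within each sex the tumour was the lowest of the 3 tissues. The tumour level was 0.586 of the precancerous level in males (95% counting interval 0.506 to 0.679) and 0.643 of it in females (0.591 to 0.699). Over both sexes Nr1i2 fell in tumours against precancerous tissue by 0.73 on the log2 scale (SE 0.11, adjusted p = 0.0121). The order of the 6 libraries ran from female normal, female precancerous, male normal, male precancerous and female tumour down to male tumour, and the counting intervals of female precancerous and male normal, and of both male non-tumour libraries, overlapped.

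Nr1i3, on chromosome 1 from 171213970 to 171220701, spanned 8.68-fold between its highest and lowest library as counted, and 4.11-fold when counts of an overlapping gene, described below, were added. Its FPKM was 4.42 in male and 8.33 in female tumours, against 20.03 and 38.2 in precancerous tissue and 10.003 and 38.4 in normal liver. Both tumours lay below every non-tumour library, while male normal liver stood far closer to the tumours than female normal liver did. The tumour-to-precancerous ratio was 0.221 in males (0.193 to 0.252) and 0.218 in females (0.205 to 0.232), and the fitted log2 fold change was -2.22 (SE 0.31, adjusted p = 0.00904). Male precancerous tissue held 2.003 times the level of male normal liver (1.80 to 2.22), whereas the same ratio in females was 0.995 (0.958 to 1.03).

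The male values of Nr1i3 carry an uncertainty that the other members do not share. Of its exonic bases, 74.9% lie under exons of Tomm40l, a mitochondrial import gene on the opposite strand, whereas no other member had more than the 2.1% of Ahr. Tomm40l had 321, 410 and 517 counts in the male tumour, precancerous and normal libraries, and 359, 100 and 90 in the deeper female ones. In male normal liver both genes had 517 counts. Across the table, genes with at least 50% of their exons under a gene on the other strand, the partner, were picked. In 338 the partner stood at least 8-fold above the gene itself within the female libraries. Their median male-to-female log2 ratio was 2.73. In 16 genes, at 20 CPM (counts scaled to the library total) or more in females, the partner stood at least 8-fold below the gene. Their median was -0.21. The female level both chose these genes and is the denominator of the ratio. Part of the gap between the medians can come from that choice, and how much was not tested. When the counts of Nr1i3 and Tomm40l were summed, they came to 81.8, 232.2 and 172.4 CPM in male tumour, precancerous and normal tissue and to 91.3, 335.7 and 335.9 CPM in females. On that sum the tumour-to-precancerous ratio was 0.352 in males and 0.272 in females, and the male precancerous-to-normal ratio was 1.35, against 2.003 for Nr1i3 alone. The male-to-female ratio of the sum was 0.896 in tumours, 0.692 in precancerous tissue and 0.513 in normal liver, against 0.531, 0.525 and 0.261 for Nr1i3 alone. The part of the overlap in the sex difference of Nr1i3 was not tested further. The labels do not say how strands were counted, and a difference in this between male and female libraries could not be told apart from sex.

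Ahr, on chromosome 12 from 35497974 to 35535038, was at 3.41 FPKM in male and 3.17 FPKM in female tumours, against 7.52 and 11.1 FPKM in precancerous tissue and 11.6 and 11.1 FPKM in normal liver. The tumours of both sexes were alike within their counting intervals, and so were both normal livers, while male precancerous tissue lay between. The tumour held 0.454 of the precancerous level in males (0.374 to 0.548) and 0.286 in females (0.254 to 0.321). Over both sexes Ahr fell by 1.53 on the log2 scale against precancerous tissue (SE 0.18, adjusted p = 0.00677). It was the only member called whichever 1 of the 6 libraries was left out, with adjusted p between 0.0109 and 0.0449 over those fits.

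The bile acid arm was split. Nr1h4, on chromosome 10 from 89454234 to 89533585, was at 17.6 FPKM in male and 15.6 FPKM in female tumours, against 46.3 and 43.2 FPKM in precancerous tissue and 29.0 and 37.6 FPKM in normal liver. Precancerous tissue was the highest of the 3 tissues in both sexes, at 1.59 times normal liver in males (1.44 to 1.77) and 1.15 times in females (1.08 to 1.22). Nr1h4 fell in tumours against precancerous tissue by 1.46 on the log2 scale (SE 0.18, adjusted p = 0.00683), while its difference between precancerous and normal liver, 0.42 (SE 0.17), did not pass (adjusted p = 0.332). Nr0b2, on chromosome 4 from 133553376 to 133556536, was at 9.50 FPKM in male and 25.4 FPKM in female tumours, against 14.9 and 17.6 FPKM in precancerous tissue and 14.0 and 24.5 FPKM in normal liver. The male tumour was the lowest of the 6 libraries and the female tumour the highest. The tumour-to-precancerous ratio was 0.639 in males (0.474 to 0.858) and 1.44 in females (1.25 to 1.67), and the fitted log2 fold change over both was 0.00 (SE 0.34, adjusted p = 0.999).

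Rxra, on chromosome 2 from 27676440 to 27762957, varied the least of the 8 genes, 1.47-fold between its highest and lowest library. Its FPKM was 38.3 in male and 42.9 in female tumours, against 53.3 and 55.8 in precancerous tissue and 49.5 and 56.1 in normal liver. The tumour was again the lowest tissue in each sex, at 0.718 (0.680 to 0.759) of precancerous tissue in males and 0.768 (0.743 to 0.795) in females. The fitted log2 fold change of -0.46 (SE 0.15) did not pass the test (adjusted p = 0.0844); DESeq2 and limma with a pseudocount of 0.1 did call it.

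Thrb, on chromosome 14 from 17660960 to 18038088, was the lowest of the 8, with 1.69 FPKM in male and 1.29 FPKM in female tumours, against 3.16 and 2.04 FPKM in precancerous tissue and 3.05 and 1.87 FPKM in normal liver. Males were above females in each tissue. The tumour held 0.535 of the precancerous level in males (0.443 to 0.645) and 0.632 in females (0.547 to 0.729), a fitted fall of 0.80 on the log2 scale (SE 0.13, adjusted p = 0.0138).

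Por, on chromosome 5 from 135670033 to 135735326, was at 36.1 FPKM in male and 65.9 FPKM in female tumours, against 83.3 and 163.7 FPKM in precancerous tissue and 35.9 and 156.4 FPKM in normal liver. In females the tumour stood below both other tissues, whereas in males the tumour and normal liver overlapped within counting error and precancerous tissue was 2.32 times normal liver (2.17 to 2.49). The tumour-to-precancerous ratio was close in the sexes, 0.433 in males (0.405 to 0.462) and 0.403 in females (0.391 to 0.415). The fitted log2 fold change was -1.29 (SE 0.35) and just missed the threshold (adjusted p = 0.0502).

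**Figure D2:**
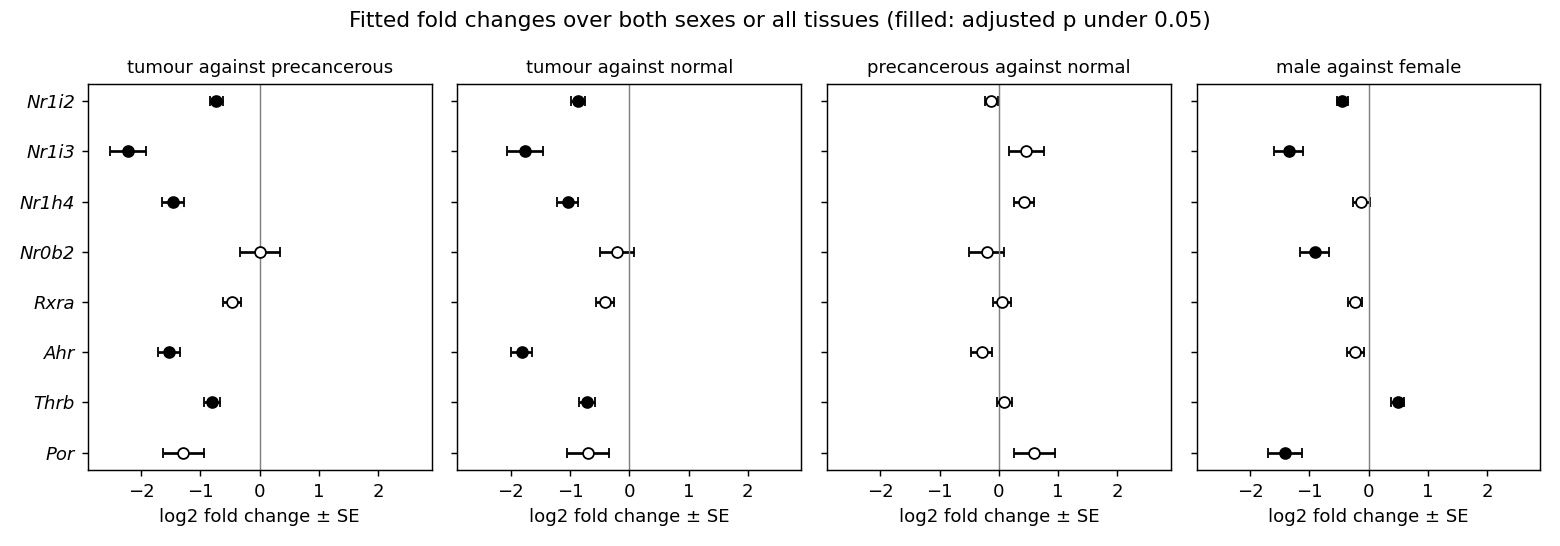
Fitted log2 fold change with its standard error for the 8 genes in 4 comparisons, tissues over both sexes and males over females; filled points have an adjusted p under 0.05. The tumour comparisons hold 5 filled points each, all below 0, the precancerous comparison none, and the sex comparison 4 below 0 and Thrb above it.

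The median log2 fold change of the 8 genes in tumours against precancerous tissue was -1.05, beside 0.03 over all tested genes. Without the male precancerous library only Ahr of the 8 was called, and without the female one only Nr1i3 and Ahr. Fits that leave out a library have 1 residual degree of freedom, and those without the male or the female precancerous library called 458 and 506 genes in all. Over the 6 such fits the log2 fold change stayed between -0.82 and -0.69 for Nr1i2, -2.52 and -1.96 for Nr1i3, -1.64 and -1.33 for Nr1h4, and -0.97 and -0.69 for Thrb. Between tumours and normal liver the log2 fold changes of the 5 called genes were led by Ahr at -1.82 on the log2 scale (SE 0.18), with Nr1i3 at -1.76 (SE 0.30), Nr1h4 at -1.04 (SE 0.18), Nr1i2 at -0.86 (SE 0.11) and Thrb at -0.72 (SE 0.13). Thrb was not called there without either normal library, nor Nr1i3 without the female tumour. Both comparisons use the same tumour libraries and are not independent.

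Precancerous liver of Hras12V mice was compared with normal liver of wild-type mice, so transgene and tissue state cannot be told apart here. None of the 8 genes was called, and none had an unadjusted p under 0.05; DESeq2 called none either. The fitted log2 differences were 0.59 for Por (SE 0.35), 0.46 for Nr1i3 (SE 0.30), 0.42 for Nr1h4 (SE 0.17), 0.09 for Thrb, 0.05 for Rxra, -0.13 for Nr1i2, -0.21 for Nr0b2 and -0.29 for Ahr. The precancerous-to-normal ratio was 2.32 for Por and 2.003 for Nr1i3 in males (1.35 with the counts of Tomm40l added), and 1.05 and 0.995 in females.

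Males were compared with females over the 3 tissues. Por was lower in males by 1.41 on the log2 scale (SE 0.29, adjusted p = 0.0198). Nr1i3 was lower by 1.35 (SE 0.25, adjusted p = 0.0151), though its reads may not be well separated from those of Tomm40l in males. Its male-to-female ratio was 0.531 in tumours, 0.525 in precancerous tissue and 0.261 in normal liver. With the counts of Tomm40l added these ratios were 0.896, 0.692 and 0.513, and the part of the overlap in this call was not tested. Nr0b2 was lower by 0.91 (SE 0.24, adjusted p = 0.0395) and Nr1i2 by 0.44 (SE 0.09, adjusted p = 0.0207). Thrb was higher in males by 0.49 (SE 0.11, adjusted p = 0.0231). The Por ratio of male to female was 0.547 in tumours (0.515 to 0.580), 0.509 in precancerous tissue (0.489 to 0.530) and 0.229 in normal liver (0.215 to 0.244). Without the male or the female precancerous library none of these 5 was called, and without either normal library only Nr1i3 and Por were. Nr0b2 was called in none of the 6 fits that left out a library, with adjusted p between 0.0501 and 0.116. Sex, age and depth change together between these libraries and cannot be told apart. The labels do not say if strands were counted alike in male and female libraries, and any part of this was not tested.

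The 300 bases around the start of 4 genes are printed here. They are the fallen xenobiotic nuclear receptor genes Nr1i2 and Nr1i3, the bile acid receptor gene Nr1h4 and Nr0b2, which had no common tumour direction. Ahr, which also fell, had no window, and those of Rxra, Thrb and Por are not printed. Sequences are RefSeq windows of build GRCm38.p6, 250 bases before the start site and 50 from it on, written 5′ to 3′ on the gene's strand, and 7 of the 8 genes had a window. Capitals mark matches on either strand to AGGTCA (the core hexamer bound by many nuclear receptors), GCGTG (the core of the aryl hydrocarbon receptor's site), TATAAA or CACGTG (the E-box), and no match shown overlaps another.
Nr1i2 (chr16:38294775-38295074, minus strand): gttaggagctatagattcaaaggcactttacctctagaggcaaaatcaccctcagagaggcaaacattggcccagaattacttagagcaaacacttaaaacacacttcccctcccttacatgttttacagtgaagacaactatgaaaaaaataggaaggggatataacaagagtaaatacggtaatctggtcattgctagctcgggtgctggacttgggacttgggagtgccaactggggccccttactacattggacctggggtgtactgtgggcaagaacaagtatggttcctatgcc
Nr1i3 (chr1:171213720-171214019, plus strand): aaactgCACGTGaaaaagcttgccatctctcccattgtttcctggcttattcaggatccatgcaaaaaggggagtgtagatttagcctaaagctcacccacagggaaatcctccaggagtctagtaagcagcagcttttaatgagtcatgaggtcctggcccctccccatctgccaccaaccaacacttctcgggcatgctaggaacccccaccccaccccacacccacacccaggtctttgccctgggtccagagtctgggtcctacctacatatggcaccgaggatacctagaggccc
Nr1h4 (chr10:89506609-89506908, minus strand, a start site inside the gene): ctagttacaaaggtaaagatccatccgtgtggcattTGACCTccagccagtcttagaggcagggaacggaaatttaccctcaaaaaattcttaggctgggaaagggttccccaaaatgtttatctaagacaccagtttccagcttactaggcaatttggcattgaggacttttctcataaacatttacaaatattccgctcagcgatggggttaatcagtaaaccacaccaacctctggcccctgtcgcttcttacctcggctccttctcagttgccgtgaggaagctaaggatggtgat
Nr0b2 (chr4:133553126-133553425, plus strand): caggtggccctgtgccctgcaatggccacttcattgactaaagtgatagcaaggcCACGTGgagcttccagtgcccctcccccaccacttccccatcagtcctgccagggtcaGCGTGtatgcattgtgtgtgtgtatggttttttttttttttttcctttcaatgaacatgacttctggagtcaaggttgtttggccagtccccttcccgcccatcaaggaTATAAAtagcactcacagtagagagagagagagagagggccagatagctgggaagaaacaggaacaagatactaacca
The Nr1i2 window held none of the 4 motifs. The Nr1i3 window held CACGTG from -244 to -239 relative to the start site, and the Nr1h4 window held AGGTCA on the minus strand of the printed sequence, read there as TGACCT, from -214 to -209. The Nr0b2 window held CACGTG from -195 to -190, GCGTG from -137 to -133 and TATAAA from -28 to -23. Of all 32851 windows of this length in the table, 16.3% held AGGTCA, 32.4% GCGTG, 13.6% TATAAA and 7.2% CACGTG, and a match describes these letters only.

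The genes that these receptors are known to regulate were followed from fixed lists. Of 42 listed genes called between tumour and precancerous tissue and refitted, 8 were called in all 6 fits that left out a library: Ces2a, Cyp2c29, Gsta2, Cyp27a1, Slc10a1, Arnt2, Sqle and Cyp51. Among these, Arnt2 passed the filter on low values only through the tumours, where it was high. Of 15 PXR target genes 8 fell and 2 rose in tumours against precancerous tissue, beside 12.1% and 13.8% of all tested genes. The median log2 fold change of the list was -0.99. Slco1a4, an organic anion importer, was at 1.04 and 1.24 FPKM in male and female tumours, against 17.9 and 26.9 FPKM in precancerous tissue (log2 fold change -4.35, SE 0.53). Ces2a, a carboxylesterase, and Aldh1a1, a retinaldehyde dehydrogenase, had log2 fold changes of -2.26 and -1.55 and also fell. The glutathione transferase gene Gstm1 rose by 1.49, with 817 and 1107 FPKM in male and female tumours, against 240 and 458 FPKM in precancerous tissue. Cyp3a11, the classical PXR target, was at 108 and 138 FPKM in male and female tumours, 374 and 169 FPKM in precancerous tissue and 943 and 387 FPKM in normal liver, and its difference between tumour and precancerous tissue did not pass (adjusted p = 0.171), whereas that between tumour and normal liver did (log2 fold change -2.26, adjusted p = 0.0200).

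Of 15 CAR target genes 5 fell and 3 rose, beside 12.1% and 13.8% of all tested genes, with a list median of -0.92. The fallen ones were led by cytochrome P450 genes of the Cyp2c family: Cyp2c54 was at 11.9 and 0.613 FPKM in male and female tumours, against 179 and 89.2 FPKM in precancerous tissue, and Cyp2c50, Cyp2c37 and Cyp2c29 fell too, with log2 fold changes of -4.05, -3.63 and -3.24. Leaving out a library moved the log2 fold change of Cyp2c54 between -7.32 and -3.86, of Cyp2c50 between -5.96 and -2.81 and of Cyp2c37 between -5.62 and -2.45, and none of these 3 was called without the male or the female precancerous library. Cyp2c and Cyp3a genes share reads with near-identical copies, so each of their values is uncertain. The 3 that rose were Gsta2 (log2 fold change 4.45) and Gstm3 (1.99), both glutathione transferases, and Abcc4 (2.87), an exporter of bile acids and conjugates. Gsta2 was at 137 and 223 FPKM in male and female tumours, against 3.14 and 15.4 FPKM in precancerous tissue. Cyp2b10, the classical CAR target, was at 3.54 and 0.174 FPKM in male and female tumours, against 1.21 and 4.40 FPKM in precancerous tissue and 7.66 and 16.2 FPKM in normal liver. The sexes went opposite ways for it, and the fit did not pass (adjusted p = 0.638).

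Genes of bile acid synthesis were the list with the lowest median of the 10 fixed pathway lists, -1.38. Of its 16 genes 12 fell and 1 rose in tumours against precancerous tissue, beside 12.1% and 13.8% of all tested genes. Cyp27a1, which opens the alternative route, was at 19.5 and 24.8 FPKM in male and female tumours, against 77.9 and 110 FPKM in precancerous tissue and 133 and 150 FPKM in normal liver (log2 fold change against precancerous tissue -2.10, SE 0.16, adjusted p = 0.00303). Cyp7b1, also of the alternative route, had a log2 fold change of -3.35, and Cyp8b1, which sets the share of cholic acid, one of -2.14. The value of Cyp7b1 was -2.37 without the male tumour and -4.98 without the female tumour, and it was not called without the male tumour or either precancerous library (adjusted p up to 0.225). Cyp7a1, the rate-limiting enzyme, was at 10.6 and 1.20 FPKM in male and female tumours, against 57.6 and 69.9 FPKM in precancerous tissue and 17.9 and 47.6 FPKM in normal liver. Its log2 fold change of -3.63 against precancerous tissue did not pass (SE 1.13, adjusted p = 0.0716). The conjugation genes Slc27a5 and Baat fell as well, with log2 fold changes of -1.88 and -1.62.

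Cyp8b1 was the 1 gene of this list called between precancerous and normal liver: it was at 10.5 and 17.7 FPKM in male and female precancerous tissue, against 132 and 121 FPKM in normal liver (log2 fold change -3.22, SE 0.27, adjusted p = 0.0376). It was not called without the male or the female precancerous library. Cyp8b1 is also a gene that SHP is known to repress. Nr0b2 was not called in that comparison, with a precancerous-to-normal ratio of 1.06 in males and 0.718 in females. Any part of SHP in the fall of Cyp8b1 was not tested.

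Of 14 tested genes that FXR is known to induce, 2 rose and 2 fell in tumours against precancerous tissue, with a median of -0.25. These counts lie near the 13.8% and 12.1% of all tested genes. The risen ones were Slc51b, a part of the basolateral bile acid exporter (2.73), and Apoc2, a cofactor of lipoprotein lipase (2.38), and the fallen ones were Baat and Slc27a5, which the synthesis list also holds. Of the exonic bases of Apoc2, 79.5% are shared with Gm44805 on the same strand. How shared reads were counted is not given, and its effect on the value of Apoc2 was not tested. Slc51b had 6 and 2 counts in male tumour and precancerous tissue and 67 and 6 counts in the female libraries, and 12.8% of its exonic bases lie under Rasl12. Without the female tumour its log2 fold change was 1.02 (adjusted p = 0.461). Abcb11, the bile salt export pump and a classical FXR target, was at 33.6 and 26.5 FPKM in male and female tumours, against 48.8 and 41.7 FPKM in precancerous tissue and 145 and 79.9 FPKM in normal liver. It did not pass between tumour and precancerous tissue (log2 fold change -0.63, adjusted p = 0.0813). Among 12 tested bile acid transporters 3 rose and 3 fell, beside 13.8% and 12.1% of all tested genes. The uptake carriers Slc10a1 and Slco1b2 fell, with log2 fold changes of -2.59 and -3.002, as did Slco1a4, while the exporters Abcc4, Slc51b and Abcc2 rose.

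Of 9 tested AHR target genes 2 rose and 1 fell, beside 13.8% and 12.1% of all tested genes, with a list median of 0.08. Cyp1a2, a classical target, was at 79.0 and 94.8 FPKM in male and female tumours, against 229 and 264 FPKM in precancerous tissue and 455 and 380 FPKM in normal liver, and fell by 1.53 on the log2 scale (adjusted p = 0.00788). Cyp1a1, the other classical target, was at 3.22 and 6.94 FPKM in male and female tumours, against 1.496 and 1.19 FPKM in precancerous tissue, and did not pass (adjusted p = 0.0932). The risen ones were Nqo1, a quinone reductase (2.76), and Nfe2l2, which encodes the antioxidant regulator NRF2 (0.80). Nqo1 is a target of NRF2 as well as of the aryl hydrocarbon receptor.

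Of 13 tested thyroid hormone targets 4 fell and none rose, beside 12.1% and 13.8% of all tested genes, with a list median of -0.75. These 4 are not among the genes named above as called in all fits that left out a library. Over those fits the log2 fold change ran from -2.43 to -1.35 for Thrsp and from -3.12 to -1.25 for Pck1. For Adssl1 it ran from -1.46 to -0.69 and for Idh3a from -0.89 to -0.64. Thrsp, a lipogenic gene and classical target, was at 71.8 and 45.4 FPKM in male and female tumours, against 310 and 140 FPKM in precancerous tissue and 87.8 and 124 FPKM in normal liver, and fell by 1.94 against precancerous tissue. Dio1, the deiodinase that makes active hormone, was at 5.48 and 8.83 FPKM in male and female tumours, against 8.15 and 23.4 FPKM in precancerous tissue and 28.9 and 32.5 FPKM in normal liver. It missed the threshold against precancerous tissue (adjusted p = 0.0616) and passed against normal liver (log2 fold change -2.20, adjusted p = 0.00747).

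**Figure D3:**
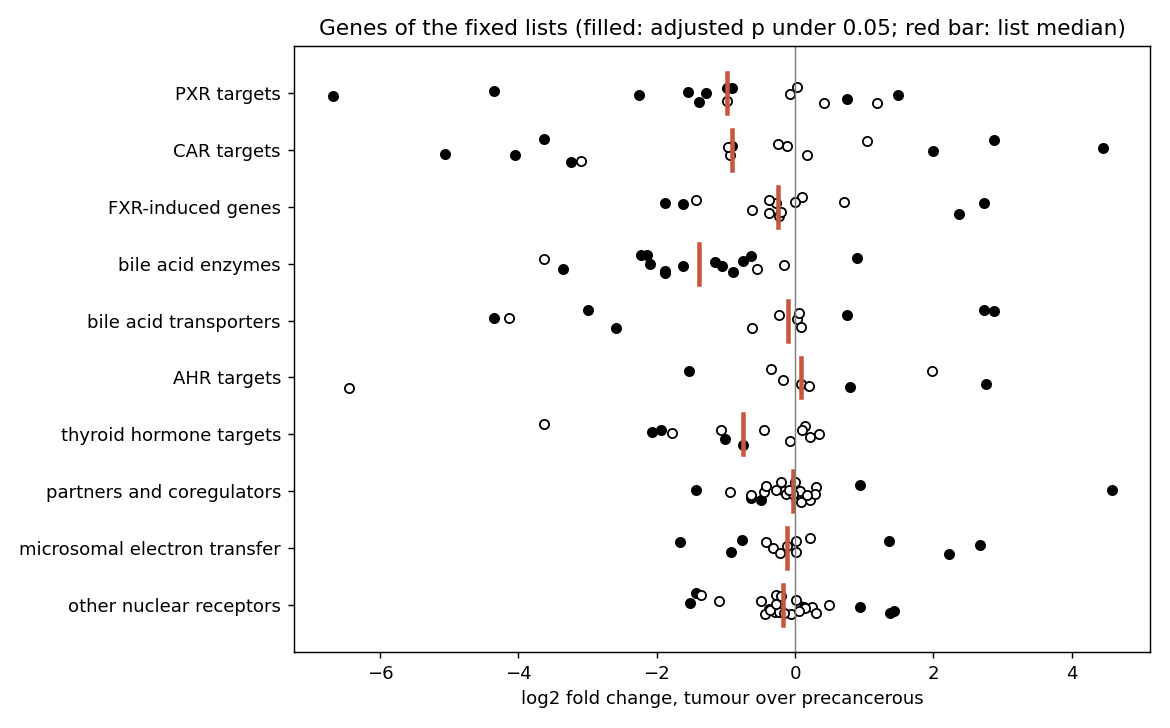
Log2 fold change of tumour over precancerous tissue for each tested gene of the 10 fixed pathway lists; filled points have an adjusted p under 0.05 and red bars are list medians. Bile acid enzymes have the lowest median, -1.38, and the AHR target and partner lists have medians near 0.

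Of 25 tested partner and coregulator genes 2 rose and 3 fell, no more than the 13.8% and 12.1% of all tested genes. The median of the list was -0.03. Arnt2, a dimer partner of the AHR family, was at 2.98 and 1.76 FPKM in male and female tumours, against 0.0242 and 0.122 FPKM in precancerous tissue. It reached 1 FPKM in the tumours only and so passed the filter through the tissue where it was high, which makes its rise not independent of that filter. Arnt2 rose by 4.58, with only 1 and 11 counts in male and female precancerous tissue. Leaving out a library moved that value between 3.79 and 6.76, and over all settings it was as low as 1.63. Foxa3, a pioneer factor of liver genes, rose by 0.93. Rxrg, another RXR gene, fell by 1.44, with at most 0.401 FPKM in tumours and at least 0.997 FPKM in the other tissues. Of 13 genes of microsomal electron transfer and haem supply 3 rose and 3 fell, beside 13.8% and 12.1% of all tested genes. Sqle (2.67) and Cyp51 (2.23), both of sterol synthesis, and Cyb5r1 (1.36) rose, and Alas1, the rate-limiting enzyme of haem synthesis, fell by 1.66. Sqle and Cyp51 were also called between precancerous and normal liver, where they fell, with log2 fold changes of -1.48 and -2.40; neither was called there without any 1 of the precancerous or normal libraries.

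Of 26 other nuclear receptor genes tested from a fixed list, 3 fell and 3 rose in tumours against precancerous tissue, near the 12.1% and 13.8% of all tested genes, with a median log2 fold change of -0.18. The oestrogen receptor gene Esr1 was at 1.02 and 0.831 FPKM in male and female tumours, against 2.53 and 2.60 FPKM in precancerous tissue, and fell by 1.52 on the log2 scale. Rxrg and the orphan receptor gene Nr2f6 were the others that fell, with log2 fold changes of -1.44 and -0.38. Rarg, Nr4a1 and Rora rose by 1.38, 1.43 and 0.93. Esr1 thus lay between Nr1i3 and Nr1h4 in its fitted log2 fold change, and Nr2f6 lay above Rxra.

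**Figure D4:**
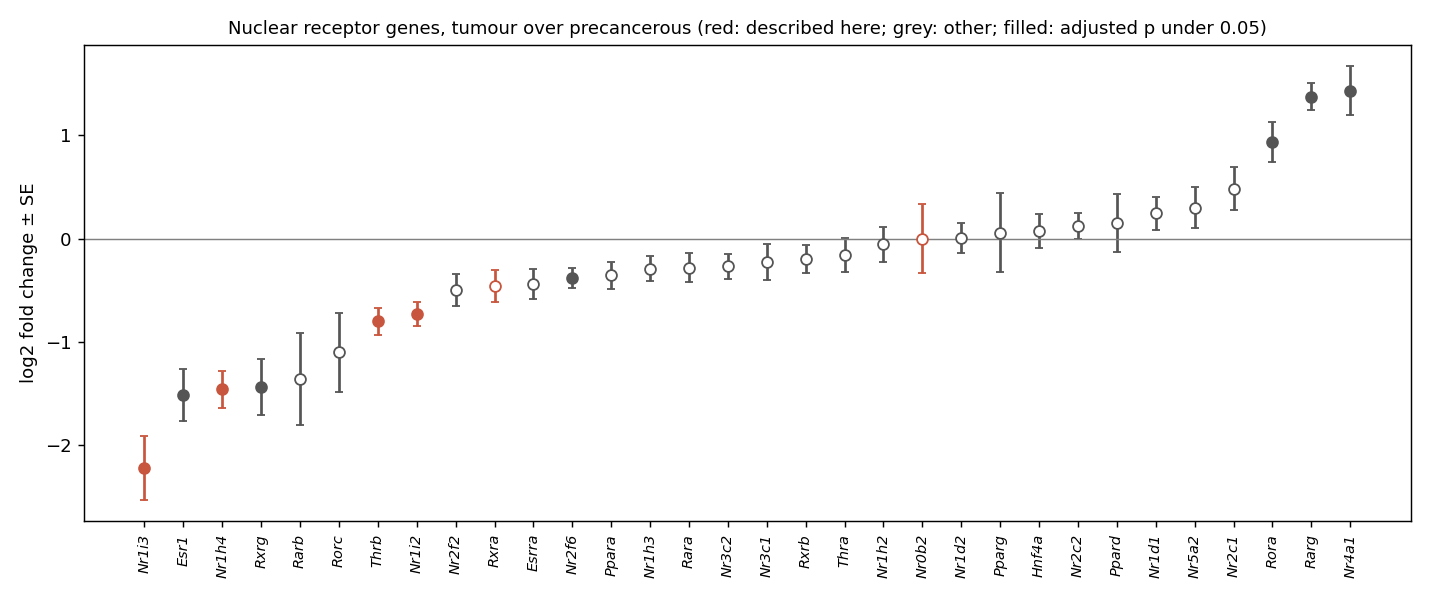
Log2 fold change with standard error of 32 nuclear receptor genes, tumour over precancerous tissue, in order of their fold change; red marks the 6 described here, grey the 26 others, and filled points have an adjusted p under 0.05. Nr1i3 lies at -2.22, Esr1 at -1.52 and Nr1h4 at -1.46, and Nr0b2 lies at 0.00.

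Between the sexes, 19.1% of all tested genes were higher and 18.2% lower in males. Of the PXR targets 2 were higher and 4 lower in males, of the CAR targets 1 and 6, of the genes FXR induces 1 and 4, of the bile acid transporters 3 and 2, of the AHR targets 0 and 4 and of the thyroid hormone targets 1 and 3. Of the bile acid enzymes 5 were higher and 1 was lower, with Cyp7b1 at 9.36, 198 and 373 FPKM in male tumour, precancerous and normal tissue and at 5.26, 34.5 and 18.2 FPKM in females (log2 fold change 2.52, SE 0.71). Over the fits that left out a library the Cyp7b1 value ran from 1.64 to 3.36, and it was not called without either normal or either precancerous library. Sult2a1, a bile acid sulphotransferase, was at 1.33 and 0.142 FPKM in male tumour and precancerous tissue and listed at 0 in male normal liver, against 4.47, 55.4 and 143 FPKM in the female libraries. Cyp3a41a was at 0.579, 60.3 and 44.6 FPKM in female tumour, precancerous and normal tissue and had at most 0.0705 FPKM in males. Slco1a1, an uptake carrier, was the reverse, at 2.08, 54.8 and 70.8 FPKM in male tumour, precancerous and normal tissue and at 0.143, 1.19 and 0.0893 FPKM in females.

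For each gene, the 3 genes with the nearest pattern were found by Euclidean distance on centred log2(FPKM + 1) over the 6 libraries, among genes with a mean FPKM of at least 5. Nr1i2 was nearest to Slc12a7 (distance 0.103, r = 0.994), Tmprss6 and Atad3a, and Nr1h4 to AI317395 (0.155, r = 0.995), Stard5 and Gpld1. Rxra was nearest to Kif1c (0.0901, r = 0.985), Iqgap2 and Ascc1, Ahr to Slc25a42 (0.172, r = 0.997), Adhfe1 and Acsm5, and Thrb to Marf1 (0.147, r = 0.982), Tgds and Mmp19. Nr1i3 was nearest to Prlr, the prolactin receptor gene (0.537, r = 0.984), followed by Ahcy and Acot4. Prlr was at 2.30, 12.5 and 4.02 FPKM in male tumour, precancerous and normal tissue and 4.09, 27.9 and 20.02 FPKM in females. Distances grow with a gene's own spread. The distance of a gene's values from their own mean was 2.62 for Nr1i3, 2.14 for Por and 0.492 for Rxra, so nearness cannot be compared between these genes. The nearest to Por were Cfp at 0.765 (r = 0.934), Ifitm1 and Klf2, and to Nr0b2 Rasgef1b at 0.289 (r = 0.979), Eno1 and Gm6793. These correlations are over 6 libraries that share tissue, sex and depth, and describe likeness only. Of these neighbours, Gpld1, Mmp19, Stard5 and Tgds have 45.5%, 28.3%, 22.0% and 15.1% of their exonic bases under genes on the other strand, so their male values are uncertain. With a pseudocount of 0.1, 18 of the 24 stayed among the nearest.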

How the data were processed

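Per the labels' protocols, a mirVana kit gave the RNA and a strand-keeping kit for messenger RNA the libraries. TopHat2 2.0.9, Cuffdiff, GRCm38 and mm10 stand in the submitters' processing notes; how strands were counted is not given there. The authors deposited, per gene and library, a whole-number count that is not normalized and an FPKM value. Both were used as deposited. Counts were tested with the quasi-likelihood method of edgeR 4.0.16 in R 4.3.3, with TMM scaling, an additive model of tissue and sex over all 6 libraries, 2 residual degrees of freedom, two-sided, Benjamini-Hochberg adjustment over the 11435 genes that reached 1 FPKM in 2 or more libraries. With 1 library in each group, p-values measure the spread between these libraries, unequal tissue effects in males and females included. The standard error (SE) is the log2 fold change over the square root of the test statistic. Ratios of 2 libraries carry 95% exact counting intervals and no test; intervals cover counting error only. DESeq2 1.42.0 and limma 3.58.1 were alternatives. The list of other nuclear receptors leaves out 1 gene that is not reported here. The 8 genes and the lists were chosen with earlier results of these data known. Genes named from each list were mostly drawn from up to 5 called genes with the largest fold change per comparison, plus a classical target whatever its value. Not all of these were described. Cyp3a41a of the PXR list and Akr1c6 of the synthesis list also fell in tumours against precancerous tissue, with log2 fold changes of -6.69 and -2.23. A few others, such as Nr2f6, were described outside that rule. Exon overlap and lengths came from GENCODE M21, and promoters from RefSeq (GRCm38.p6).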

Additional observations from a re-analysis of the deposited data

Results flagged for a closer look

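In 7 cases a gene differed in opposite directions in the 2 sexes, 1 library against 1, on log2(FPKM + 1); none of these differences between the sexes was tested. Tumour minus precancerous tissue was -0.596 in males and 0.504 in females for Nr0b2. Tumour minus normal liver was -0.514 in males and 0.0490 in females for Nr0b2, and 0.0068 in males and -1.23 in females for Por. Precancerous minus normal liver was 0.935 in males and -0.0071 in females for Nr1i3 (in males a ratio of 2.003, or 1.35 with the counts of Tomm40l added), 0.0817 and -0.455 for Nr0b2, 0.105 and -0.0077 for Rxra, and -0.562 and 0.0033 for Ahr, males first. The female values of Nr1i3, Rxra and Ahr, the male value of Por, and the values 0.0817 and 0.0490 of Nr0b2 had counting intervals of the ratio that include 1, so for these pairs a direction cannot be read. The Nr0b2 difference between tumour and precancerous tissue is the 1 case in which both intervals exclude 1.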

How the results depend on the processing

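Over all tested genes, 2965 were called between tumour and precancerous tissue, 29 between precancerous and normal liver, 3819 between tumour and normal liver and 4270 between males and females. Without a sex term these were 113, 0 and 690 for the 3 tissue comparisons. Between precancerous and normal liver the count was 183 with no filter, 368 with DESeq2, and 3 and 10 with limma on log2(FPKM + 1) and log2(FPKM + 0.1). Leaving out each library in turn gave 458 to 2937, 0 to 219, 1923 to 3234 and 764 to 3729 calls in the order above.

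Of the 8 genes, 5 fell in tumours against precancerous tissue under TMM. Por was added with RLE size factors, with no filter, with filterByExpr, with DESeq2 and without either normal library; without a sex term none was called. Nr0b2 was called in no tissue comparison, and its log2 fold change between tumour and precancerous tissue changed sign at values near 0: -0.0172 (RLE), -0.0021 (upper quartile), -0.045 (no filter), -0.0311 (filterByExpr), -0.073 (DESeq2), -0.0459 and -0.0577 (limma with pseudocounts of 1 and 0.1), and -0.5392 to 0.3615 with 1 library left out. Leaving out a library also turned the sign of uncalled values: between precancerous and normal liver for Nr1i3 (-0.0104 to 1.0136), Nr0b2 (-0.6056 to 0.281), Ahr (-0.603 to 0.0228), Thrb (-0.0009 to 0.1854), Cyp7a1 (-0.0354 to 2.6813) and Cyp1a1 (-0.8661 to 1.7609); between tumour and normal liver for Nr0b2 (-0.7897 to 0.1196); between tumour and precancerous tissue for Cyp2b10 (-4.5475 to 1.1224); and between males and females for Nr1h4 (-0.2462 to 0.052), Cyp2b10 (-1.4537 to 0.7134, and 0.2939 with limma and a pseudocount of 0.1), Cyp7a1 (-0.9474 to 1.2377), Cyp1a1 (-0.6539 to 1.0286) and Thrsp (-0.0271 to 0.8173). The cause was not tested. With TMM-scaled counts the male-to-female log2 differences were -0.284 (tumour) and -0.2836 (normal) for Rxra and -0.9868 and -2.2192 for Por. No paired analysis was possible because the labels give no replicate numbers; sex is already a term of the model. In males the lowest counts of Nr0b2, Ahr and Thrb were 79, 164 and 179.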
